A study of Mus musculus with 6 samples.

Results

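The genes described here encode chains of the B cell receptor and the coreceptors that set its threshold, measured in spleens of mice labelled Rag2/pfp KO and in wild-type spleens. All probes annotated with one of 8 gene names were taken: Ighm, Cd79a, Cd79b, Vpreb3, Cr2, Cd81, Cd22 and Cd72. Of these, 6 genes were covered by 10 of the 25697 probes. Ighm and Cd72 were paired with no probe in the annotation used and were not analysed here. Spleen RNA samples, 3 labelled knockout and 3 labelled wild type, were hybridised to Illumina MouseRef-8 v2 arrays, 1 array per sample. RAG2 is part of the enzyme that joins V, D and J segments, and perforin, the product of the gene long called pfp, is the pore former of cytotoxic cells. The genotype label of the first group names both, and that of the second reads wild type. The sources used here do not give age, sex or strain, nor whether each sample is a mouse of its own.

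The B cell receptor is a membrane immunoglobulin, whose heavy chain in naive cells is encoded by Ighm, bound to the signalling pair of Cd79a and Cd79b. Binding of antigen leads to phosphorylation of tyrosine motifs in the tails of both signalling chains. CR2, also called CD21, binds complement fragments attached to antigen and lowers the threshold of activation together with the tetraspanin CD81. CD22, a lectin that binds sialic acid, and CD72 carry inhibitory motifs that raise it. VPREB3 is a relative of the surrogate light chain proteins made by B cell precursors. Spleen is a major site of mature B cells, and loss of Rag2 is known to stop B cell development before a complete heavy chain is made.

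Detection, a deposited detection p-value under 0.05, was met by 12084 to 12595 probes per knockout array and by 12545 to 13149 per wild-type array. Macrophage transcripts of the red pulp, the blood-filtering compartment of the spleen, were present in both groups. Of that list 7 genes were tested by limma, and 0 were called in either direction, with 0 at an unadjusted p under 0.05. Among all tested genes 2.88% were called lower and 1.04% higher, so 0 of 7 is close to those shares. Knockout replicate 2 stood apart from the other arrays in transcripts of the sex chromosomes. Its Xist probes read 4.88 and 5.13 log2 and were not detected, and its Eif2s3y probe read 8.30 log2 against 4.59 to 4.82 on the other arrays. The number of receptor and coreceptor genes called lower was 5 with and 5 without that array.

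Receptor and coreceptor transcripts were lower in the knockout for 5 of the 6 measured genes, and Cd81 did not pass the test. A gene was called at an adjusted p under 0.05 in a limma fit across all 12885 tested probes, and each gene was represented by its brightest tested probe. Of 9158 tested genes, 2.88% were called lower and 1.04% higher, and of the tested probes 2.94% were called lower. Over all probes 379 were called lower and 126 higher, a split that became 857 and 16 without between-array normalization and 661 and 49 with median centring. All 7 called probes of these genes were lower in the knockout. The median difference over the 6 genes was -3.36 log2, against 0.03 for all tested genes. Of the 10 probes, 8 were tested, since 1 probe of Cr2 and 1 of Cd22 were at background on every array. The values given as log2 below are background corrected and normalized between arrays. Changes are also given on the authors' log2 scale, which is normalized without background correction and gives smaller differences for dim probes. In whole spleen, fewer cells of a type and less RNA per cell cannot be told apart.

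**Figure D1:**
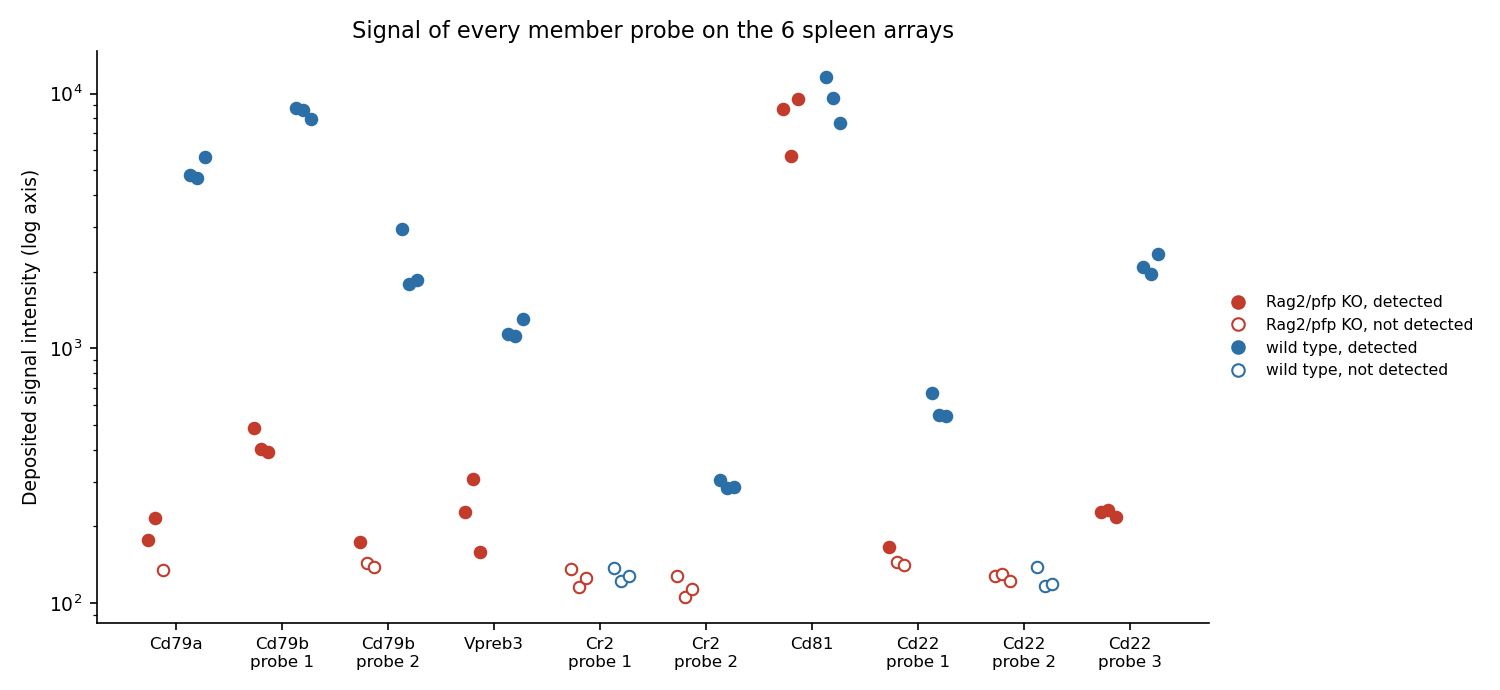
Deposited signal intensity (log axis) of all 10 probes of the 6 measured genes on each array, with knockout arrays to the left and wild-type arrays to the right of each tick; open points were not detected. Knockout points lie below the wild-type points of the same probe for every tested probe except that of Cd81, and 2 probes are open on all 6 arrays.

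Cd79a, the alpha signalling chain, had a signal of 4803, 4668 and 5639.9 on wild-type replicates 1 to 3 and of 176, 215 and 135 on knockout replicates 1 to 3. The groups did not overlap, and on knockout replicate 3 the probe was not detected. Knockout values averaged 6.04 ± 1.08 log2 against 12.19 ± 0.29 in wild type (SD, n = 3), a fall of 71.4-fold with a 95% interval of 33.9 to 150.4 (adjusted p = 0.000101). The fall was 25.8-fold on the authors' scale. By size of decrease Cd79a ranked 4 among the 9158 tested genes.

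Cd79b, the beta signalling chain, was measured by a pair of probes. The brighter probe had a signal of 8805, 8630.0 and 7949 in wild type and of 487, 401 and 392 in the knockout, where it was still detected on all 3 arrays. It fell by 4.45 ± 0.21 log2 (SE), or 21.8-fold (95% interval 15.6 to 30.5; adjusted p = 6.52e-06), and by 17.0-fold on the authors' scale. The dimmer probe had a signal of 2954, 1791 and 1849.6 in wild type and of 174, 143 and 139 in the knockout, where it was detected on replicate 1 alone. Its fall was 5.42 ± 0.28 log2 (adjusted p = 7.89e-06), with an authors' difference of -3.66 log2. Both probes therefore gave the same direction, with no overlap between groups, and the knockout spread of the brighter one was small at 0.12 log2 (SD, n = 3).

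Vpreb3 had a signal of 1142, 1115 and 1301 in wild type and of 229, 308 and 158 in the knockout, and it was detected on every array. Knockout replicate 2 was the highest and replicate 3 the lowest of its group, and all 3 lay below wild type. The means were 6.91 ± 1.15 log2 and 9.90 ± 0.29 log2 (SD, n = 3), a fall of 7.93-fold (95% interval 3.64 to 17.3; adjusted p = 0.0129), or 4.30-fold on the authors' scale. Vpreb3 lost its call in 2 alternatives: adjusted p was 0.0654 without wild-type replicate 3 and 0.0762 with no detection filter. Without knockout replicate 2 it fell by 3.60 log2, over 1.5 times the fold of the full data.

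Cr2, the complement receptor, was measured close to background. Its tested probe had a signal of 305, 282 and 286 in wild type and of 127, 106 and 114 in the knockout, where it was not detected on any array. The probe thus entered the test through wild type alone. Its measured means were 4.65 ± 0.08 log2 in the knockout and 7.24 ± 0.15 log2 in wild type (SD, n = 3). The limma difference was -2.59 ± 0.22 log2 (SE, adjusted p = 0.000195). Set against the lowest detected values, the background-corrected fold was at least 3.46. On the authors' scale, which is not background corrected, the measured fall was 2.28-fold, below that bound. The other Cr2 probe read 115 to 136 in the knockout and 122 to 138 in wild type and was undetected on all 6 arrays, so it gave no check of the first.

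Cd81, the tetraspanin partner of CR2, was detected on all 6 arrays and did not pass the test. The wild-type signals were 11655, 9609 and 7695 and the knockout signals 8669, 5696 and 9490.3, each in replicate order, and the groups overlapped. The difference was -0.23 ± 0.26 log2 (SE; adjusted p = 0.716), with a 95% interval from -0.81 to 0.34. The interval therefore reaches from a 1.75-fold decrease to a small increase, and the authors' scale gave -0.23 as well. Cd81 ranked 2518 among the 9158 genes by decrease. Outside B cells, CD81 is known from many other cell types. Of the 13 tested tetraspanins 1 fell, against 2.88% of all tested genes called lower. It was Cd37, a leukocyte tetraspanin, at -2.75 ± 0.48 log2 (adjusted p = 0.0156). The call of Cd37 was lost without knockout replicate 3, without wild-type replicate 1 or 3 and with no detection filter, at adjusted p up to 0.0833. Tspan33 and Cd82, the tested members of that list with the highest mean, differed by 0.93 ± 0.34 and 0.47 ± 0.25 log2 and were not called, although Tspan33 was called higher without knockout replicate 3 (1.29 log2, adjusted p = 0.0459). The tested tetraspanins ranged up to 1.17 log2 for Tspan8, which was not called (adjusted p = 0.0634).

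Cd22, the inhibitory lectin, had 3 probes. The brightest had a signal of 2096, 1953 and 2341 in wild type and of 229, 233 and 218 in the knockout, detected on all 6 arrays, and fell by 13.4-fold (95% interval 8.80 to 20.3; adjusted p = 6.19e-05). On the authors' scale it fell by 7.67-fold. The second had a signal of 669, 545 and 544 in wild type and of 166, 145 and 140.5 in the knockout, and fell by 3.26 ± 0.22 log2 (SE; adjusted p = 4.72e-05), or 1.75 log2 on the authors' scale. These probes were separate between groups. The third was not detected on any array, at 122 to 130 in the knockout and 117 to 139 in wild type.

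**Figure D2:**
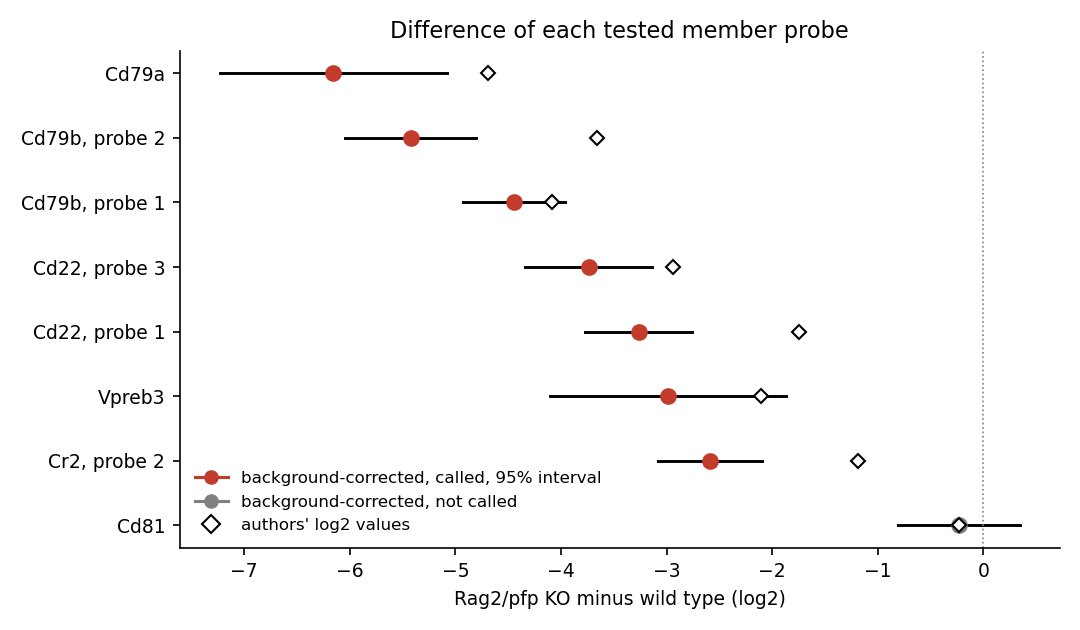
Knockout minus wild-type difference (log2) of each tested probe, with the 95% interval of the limma fit as a bar and the difference of the authors' log2 values as an open diamond. Of the 8 intervals, that of Cd81 alone includes 0, and the diamonds lie closer to 0 for probes near background in the knockout.

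**Figure D3:**
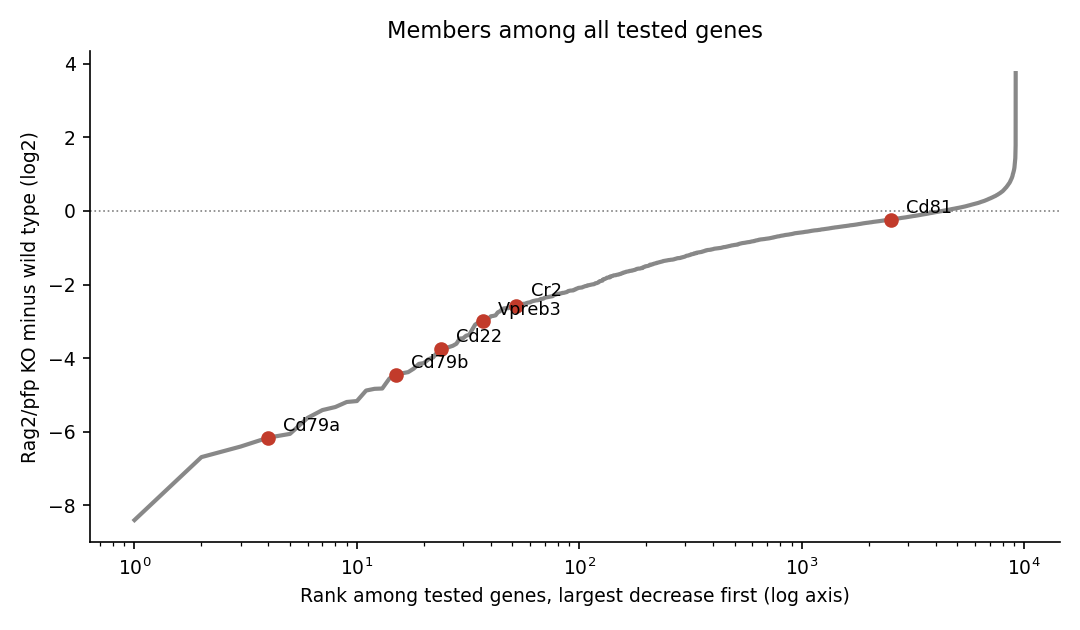
All 9158 tested genes ordered by knockout minus wild-type difference (log2; rank on a log axis), with the 6 receptor and coreceptor genes marked. Cd79a ranks 4, Cd79b 15, Cd22 24, Vpreb3 37, Cr2 52 and Cd81 2518; Cr2 was undetected in the knockout, so its rank rests on a value at background.

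Every knockout value lay below every wild-type value for 5 of the 6 genes, compared with 12.3% of all tested genes. Cr2, which is among the 5, passed the detection filter through wild type alone, so its separation was close to fixed by that filter. The sizes of the falls were set against each other through the within-array ratio of a pair of genes, over 15 pairs. With 3 arrays against 3, a two-sided exact permutation test cannot give p under 0.1, and after adjustment over the 15 pairs the lowest p was 0.115, so no pair passed. The ratio of Cd81 to Cd22 was higher in the knockout by 3.51 log2 on average, and by 3.64, 3.01 and 3.87 log2 on its 3 arrays, while wild-type arrays lay between -0.52 and 0.36 of their mean. The ratio of Cd79a to Cd79b differed by -1.71 log2 on average, with values of -0.69 log2 on knockout replicate 2 and -2.65 log2 on replicate 3. The groups did not overlap for 13 of the 15 ratios, which include every ratio to Cd81, the gene that was not called. Ratios of other gene pairs were not counted, so this number has no background and is no test. The groups overlapped for Vpreb3 against Cr2, with a difference of -0.39 log2 in their changes (exact permutation p = 0.7). Overlap was also seen for Vpreb3 against Cd22, with 0.75 log2 (exact permutation p = 0.4). Cr2 was undetected in the knockout, so its ratios there are bounded by background.

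Among knockout arrays, Cd79a and Vpreb3 varied most. Relative to the wild-type mean, Cd79a lay at -6.34, -5.00 and -7.14 log2 on replicates 1 to 3, and Vpreb3 at -3.14, -1.77 and -4.05 log2. Their changes differed by -3.19, -3.23 and -3.09 log2 on the same arrays. Cd79a was not detected on replicate 3, and with it set to that array's lowest detected value, a choice made after the values were seen, the last of these was -2.71 log2. Cd79b, at -4.54, -4.31 and -4.49 log2, moved little between these arrays. This comparison within the knockout was made after the values were seen and has no test.

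Vpreb1, which encodes a surrogate light chain protein of B cell precursors, ran in the opposite direction. The knockout signals were 285, 547 and 217 and the wild-type signals 160, 194 and 169, each in replicate order, and the groups did not overlap. On average it was 2.17 ± 0.52 log2 (SE) above wild type without passing the test (adjusted p = 0.0571), with values of 1.60, 3.52 and 1.38 log2 above the wild-type mean. On normalized log2 values, knockout replicate 2 was the highest of its group in Vpreb1, Vpreb3 and Cd79a, but not in Cr2. By smaller margins it was also highest on the brightest probes of Cd79b and Cd22. The second tested probes of Cd79b and Cd22 were instead highest on replicate 1, as was the deposited signal of the brighter Cd79b probe. Adjusted p for Vpreb1 ranged from 0.000274 to 0.229 over the alternatives, and it was 0.0373 without knockout replicate 2, where the difference was 1.49 log2. On the authors' scale the difference was 1.13 log2 (adjusted p = 0.174). Vpreb2 was not detected on any array. Replicate 2 is also the array that differed in Xist and Eif2s3y, and the part of that difference in these values was not tested.

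**Figure D4:**
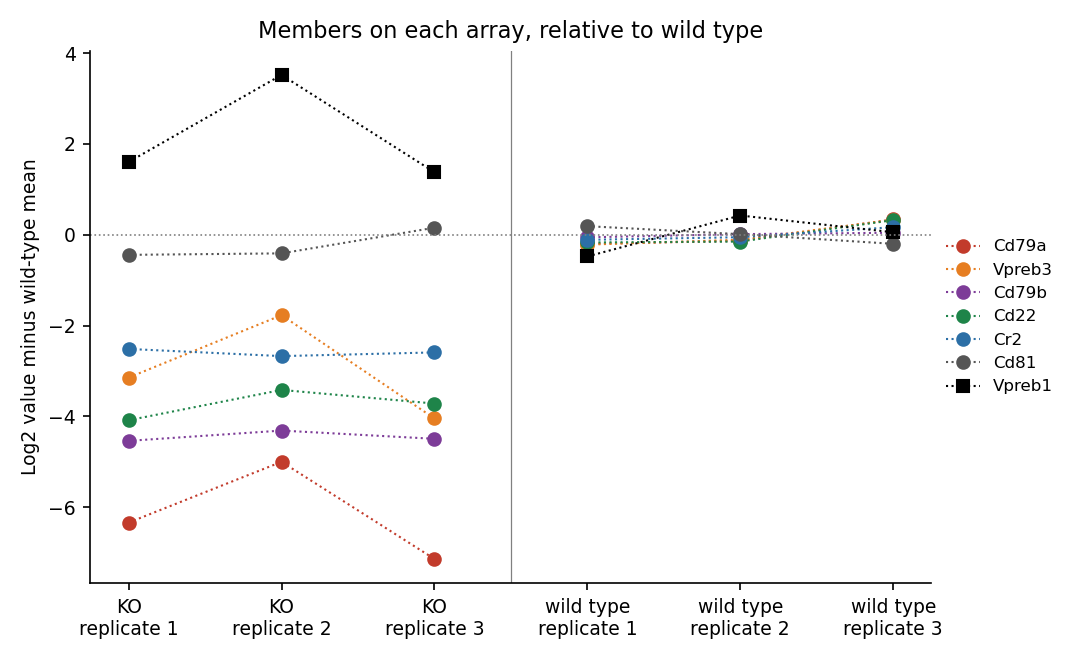
Log2 value minus the wild-type mean on each of the 6 arrays for the 6 receptor and coreceptor genes and for Vpreb1; dotted lines join the values of a gene within a group and imply no order. Cd79a, Vpreb3 and Vpreb1 are highest on knockout replicate 2 among the knockout arrays, while Cd79b, Cr2, Cd81 and Cd22 move by under 1 log2.

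Sequences upstream of the start sites are shown for 4 genes that were called lower together and for Cd81, which was not, so that the letters can be read beside the differences. They are the 250 bases before the RefSeq start on GRCm38.p6, 5′ to 3′ in the direction of the gene, and lie at chr7:24897247-24897496 (plus strand) for Cd79a, chr10:75948050-75948299 (plus) for Vpreb3, chr7:30879029-30879278 (minus) for Cd22, chr1:195176720-195176969 (minus) for Cr2 and chr7:143052500-143052749 (plus) for Cd81. Capitals mark the motifs found among 5 searched on both strands.
Cd79a: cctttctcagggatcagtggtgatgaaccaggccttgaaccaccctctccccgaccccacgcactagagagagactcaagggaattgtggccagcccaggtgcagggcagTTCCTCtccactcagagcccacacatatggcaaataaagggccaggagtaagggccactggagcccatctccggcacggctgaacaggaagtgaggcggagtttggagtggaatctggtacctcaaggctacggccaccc
Vpreb3: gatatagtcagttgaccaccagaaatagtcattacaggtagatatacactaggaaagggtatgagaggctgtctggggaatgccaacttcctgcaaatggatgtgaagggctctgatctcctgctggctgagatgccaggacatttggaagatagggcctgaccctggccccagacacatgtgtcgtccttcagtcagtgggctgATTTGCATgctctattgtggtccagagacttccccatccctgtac
Cd22: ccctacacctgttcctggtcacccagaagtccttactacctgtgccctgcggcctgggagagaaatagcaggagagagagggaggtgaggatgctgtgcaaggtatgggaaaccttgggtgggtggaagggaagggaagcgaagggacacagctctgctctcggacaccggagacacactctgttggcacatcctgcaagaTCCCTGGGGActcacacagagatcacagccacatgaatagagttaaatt
Cr2: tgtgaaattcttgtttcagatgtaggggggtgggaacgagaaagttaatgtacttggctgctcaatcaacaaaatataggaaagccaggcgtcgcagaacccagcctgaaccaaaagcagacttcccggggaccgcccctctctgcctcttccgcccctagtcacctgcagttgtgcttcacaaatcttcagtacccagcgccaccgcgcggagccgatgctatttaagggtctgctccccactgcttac
Cd81: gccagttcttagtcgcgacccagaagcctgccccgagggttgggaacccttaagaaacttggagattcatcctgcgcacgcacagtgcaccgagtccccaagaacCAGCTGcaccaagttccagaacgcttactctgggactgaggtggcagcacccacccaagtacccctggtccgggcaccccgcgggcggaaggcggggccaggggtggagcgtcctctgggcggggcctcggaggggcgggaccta

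The octamer ATGCAAAT, bound by POU factors such as OCT2, was found in Vpreb3, 45 bases before its start on the opposite strand, and in 1.60% of 32851 upstream windows of the same length. An EBF1-type palindrome (TCCC and GGGA separated by any 2 bases) was found in Cd22, 49 bases before its start, and in 0.779% of windows. GAGGAA, a core of PU.1 sites, was found in Cd79a on the opposite strand and in 23.3% of windows, and the E-box CAGCTG in Cd81 and in 13% of windows. TATAAA, present in 12.4% of windows, was found in none of the 5, and Cr2 held no match to any of the motifs. No matches overlapped. The GC content was 58.8% for Cd79a, 50.4% for Vpreb3, 55.2% for Cd22, 53.6% for Cr2 and 65.6% for Cd81, against a median of 52.4% over all windows. These matches describe the letters of the reference only.

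Of 10 tested genes that encode other coreceptors and inhibitory receptors of B cells, 7 were lower, 0 higher and 3 not called, with a median of -2.15 log2. Of the 7, 2 were undetected on every knockout array and entered the test through wild type alone, so the median rests partly on background. Over all tested genes 2.88% were called lower and 1.04% higher. Fcrla, an Fc receptor-like protein of B cells, fell by 4.88 ± 0.24 log2 (SE, adjusted p = 6.52e-06). Its 3 other tested probes were called lower as well, at -4.77 to -3.51 log2. Cd5, which is carried by T cells and by a subset of B cells, fell by 3.22 ± 0.23 log2 (adjusted p = 6.50e-05), and the third by size was Cd37, described above. On the authors' scale the differences were -4.07 log2 for Fcrla, -1.71 for Cd5 and -2.19 for Cd37.

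Ligands of the coreceptors and the enzymes that make them gave 3 lower genes of 5 tested, against 2.88% of all tested genes. Fcer2a, the low-affinity IgE receptor CD23 and a ligand of CR2 known from human cells, fell by 4.41 ± 0.29 log2 on its brighter probe (adjusted p = 3.65e-05), while its other probe, at -0.93 log2, was not called. St6gal1, which makes the sialic acid linkage that CD22 binds, fell by 2.35 ± 0.35 log2 (adjusted p = 0.00770). Cmah, which converts the sialic acid of CD22 ligands in the mouse, was not detected in the knockout and entered the test through wild type alone. Its limma difference was -2.36 ± 0.29 log2 (adjusted p = 0.00293), and its background-corrected fold was at least 3.35. The remaining members were C4b, a source of complement fragments, at 0.02 ± 0.51 log2, and Sema4d, the ligand of CD72, at -0.27 ± 0.29 log2. The authors' scale gave -2.68 log2 for Fcer2a, -2.27 for St6gal1 and -1.02 for Cmah.

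Downstream of the receptor, 3 of 18 tested signalling genes fell, against 2.88% of all tested genes, and 15 were not called, with a median of -0.81 log2. Blk, a SRC family kinase of B cells, fell by 5.41 ± 0.32 log2 (adjusted p = 1.92e-05) on its brightest probe. Its 2 further probes were also called lower, at -5.18 and -1.12 log2, so the probes differed in the size of the fall. Blnk, the adaptor that links SYK to phospholipase C, fell by 3.09 ± 0.22 log2 (adjusted p = 6.50e-05), with its other probe called lower. Prkcb, protein kinase C beta, fell by 1.55 ± 0.31 log2 (adjusted p = 0.0293), a call lost in 5 alternatives, without knockout replicate 1 or 3, without wild-type replicate 1 or 2 and with no detection filter. At an unadjusted p under 0.05, 9 of the 18 genes were lower and 0 higher. The share of all tested genes at that threshold was not counted, so this number has no background beside it. Among those not called, the kinases Syk and Btk differed by -0.43 ± 0.32 and -0.57 ± 0.31 log2 and the phosphatase gene Ptpn6 by -0.84 ± 0.33 log2. On the authors' scale the differences were -4.11 log2 for Blk, -1.81 for Blnk and -1.44 for Prkcb.

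Transcription factors of the B lineage were lower for 5 of 9 tested genes, against 2.88% of all tested genes, with a median of -1.33 log2. Pou2af1, the coactivator of octamer-bound OCT factors, fell by 6.40 ± 0.27 log2 (adjusted p = 3.14e-06) and was detected on 1 knockout array. Irf4 fell by 3.37 ± 0.30 log2 and Spib, a relative of PU.1, by 2.06 ± 0.34 log2 (adjusted p = 0.0128). Leaving out wild-type replicate 2 or 3, or applying no detection filter, ended the call of Spib, at adjusted p up to 0.0688. The authors' values gave -4.62 log2 for Pou2af1, -2.53 for Irf4 and -1.14 for Spib. Pax5 was undetected on all 6 arrays, and Ebf1 was detected on 1 wild-type array. Of the 4 tested early B lineage markers limma called 0. At an unadjusted p under 0.05, 2 were lower and 1 higher, again without a share of all tested genes for comparison. Il7r differed by -1.75 ± 0.49 log2 (adjusted p = 0.0931), although its other probe was called lower at -1.52 log2. Without knockout replicate 3 the first probe was called too (-2.36 log2, adjusted p = 0.0123), as it was without between-array normalization (adjusted p = 0.0431) and with a replicate block (adjusted p = 0.0105). Cd93 differed by 0.11 ± 0.31 log2.

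The 5 tested genes whose profile over the 6 arrays lay nearest to the median profile of the receptor and coreceptor genes were Bhlha15, Derl3, Nsg2, Cd5 and Irf4. Their root mean square distances were 0.15, 0.22, 0.27, 0.28 and 0.28 log2, with each gene set to its own wild-type mean. For single genes, the nearest were Mzb1 for Cd79a at 0.51 log2, Ell3 for Cd79b at 0.20, Bhlha15 for Cd22 at 0.21, Ptprcap for Vpreb3 at 0.45, Tmem108 for Cr2 at 0.10 and Msantd4 for Cd81 at 0.07 log2. Derl3, Nsg2, Ell3 and Tmem108 were not detected on any knockout array, so their distances depend on background.

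Markers of other cell types moved between the same groups. For comparison, 2.88% of all tested genes were called lower and 1.04% higher. Of 10 tested T cell genes 7 were lower (median -3.69 log2), as were 5 of 5 plasma cell genes (median -3.47) and 6 of 10 genes of neutrophils and their precursors (median -1.80). In the T cell and plasma cell lists, 2 tested genes each were undetected on every knockout array, against 1.36% of all tested genes. Such genes entered the test through wild type alone. The plasma cell median is the value of Derl3, which was among them, so it rests on background. The summed signal of the T cell list was 2502 to 3249 in the knockout and 19931 to 21509.8 in wild type, and that of the plasma cell list was 5403 to 7563 and 27709 to 38834. Limma called 0 of 6 natural killer genes (median 0.31 log2) and 0 of 3 conventional dendritic cell genes (median 0.60). At an unadjusted p under 0.05, 2 and 1 were higher, with no share of all tested genes at that threshold counted. Among erythroid genes 3 of 7 were higher (median 0.81 log2), and 1 of 7 genes of follicular dendritic cells and stroma was lower (median -1.05). What these shifts contribute to the levels of Cd79a, Cd79b, Cd22, Cr2, Vpreb3 and Cd81 was not tested.

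**Figure D5:**
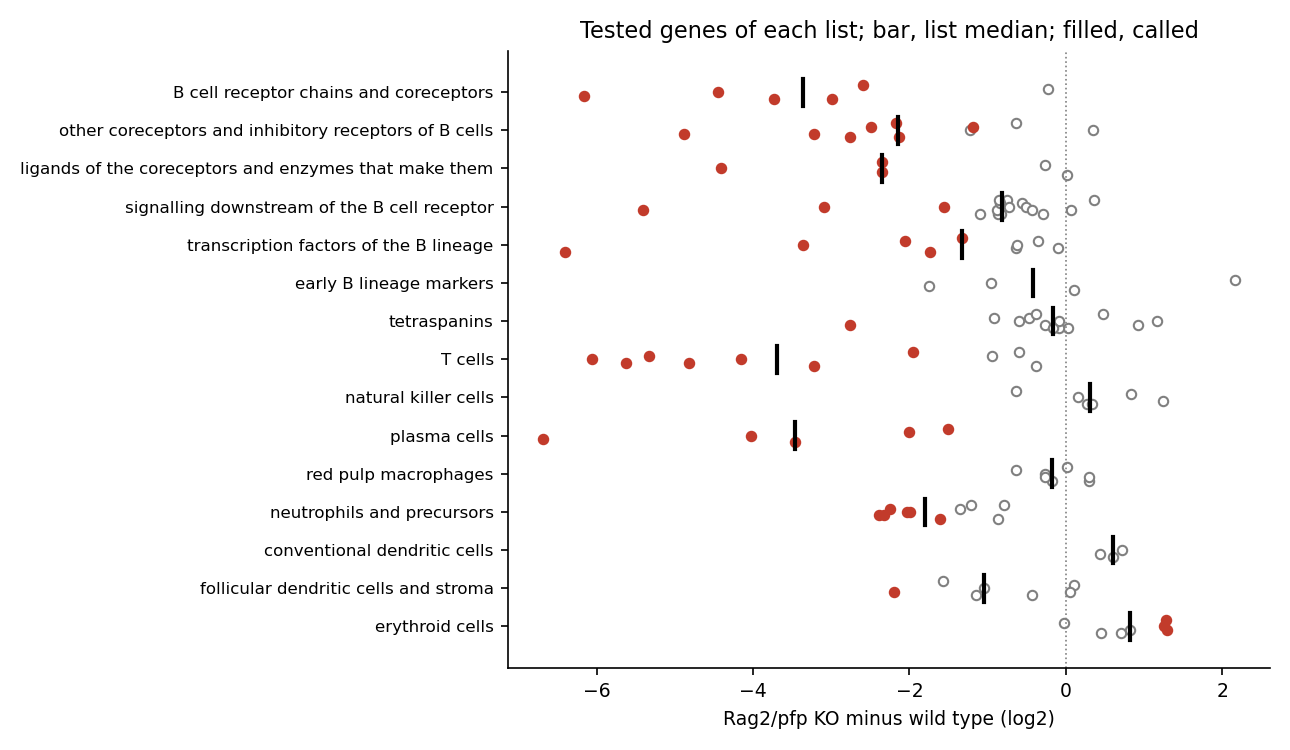
Knockout minus wild-type difference (log2) of every tested gene in each list with at least 3 tested genes; a bar marks the list median and filled points were called. The receptor and coreceptor genes (median -3.36), T cell genes (-3.69) and plasma cell genes (-3.47) lie furthest to the left, and Cd81 is the open point of the first row. The T cell and plasma cell lists each hold 2 genes undetected on every knockout array, and the plasma cell median is the value of such a gene.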

How the data were processed

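Biotin-labelled cRNA was made from total spleen RNA, with oligo(dT) priming, per the labels' protocols. The authors deposited signal intensity per probe, not normalized between arrays, with a detection p-value per probe and array, per the file headers. The submitters' processing notes name GenomeStudio 2011.1. The authors' deposited log2 table (column medians 7.24) could be rebuilt, with a largest difference of 5e-07, by quantile normalization of the uncorrected log2 signal.

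Background correction and quantile normalization were done here by neqc (limma 3.58.1, R 4.3.3; offset 16). The offset shrinks differences of dim probes, and the normalization removes any change shared by most transcripts. Probes detected (p under 0.05) on at least 3 of 6 arrays were tested, 12885 of 25697. Group was the only term in lmFit and eBayes, two-sided, with Benjamini-Hochberg adjustment over all tested probes. The fit was also run on simulated normal noise with known changes, drawn independently for each array. That check does not cover factors shared between arrays or arrays of unequal spread. With 3 arrays per group, p-values set the group difference against the spread between samples, moderated over all tested probes. That spread may be technical. Where a probe was undetected on all arrays of a group, the fold is a bound: the other group's mean is divided by a floor, the mean over arrays of the larger of the probe's own value and that array's lowest detected value.

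Symbols came from the platform annotation, updated by gene number to RefSeq (GRCm38.p6): 23978 probes had 1 symbol and 1719 were unnamed here. Promoter sequences are from RefSeq, and 6 of the 8 genes had an entry. Members and gene lists were chosen with earlier results of these data known. From each pathway list up to 3 called genes with the largest change were named, or the 2 brightest where fewer than 2 were called; genes named beyond this were chosen after their values were seen. The replicate numbers were not used to pair the samples in the main fit.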

Additional observations from a re-analysis of the deposited data

How the results depend on the processing

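The 6 genes gave 112 differences over all alternatives, of which 110 kept their direction and their side of the threshold. The exceptions were Vpreb3 without a detection filter (-2.99 log2, adjusted p = 0.0762) and without wild-type replicate 3 (adjusted p = 0.0654). Leaving out 1 array at a time gave -6.74 to -5.67 log2 for Cd79a, -4.52 to -4.40 for Cd79b, -3.60 to -2.46 for Vpreb3, -2.65 to -2.51 for Cr2, -3.90 to -3.57 for Cd22 and -0.43 to -0.13 for Cd81, with 4 to 5 genes called lower. Requiring detection on all 6 arrays left 4 of the genes to test, of which 3 were called lower.

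Counts over all tested probes moved more. Against 379 lower and 126 higher, omitting between-array normalization gave 857 and 16 (overall median difference -0.33 log2) and median centring gave 661 and 49 (overall median -0.16 log2). There were 78 higher without a detection filter, 257 higher with array weights and 234 lower when detection was required on all 6 arrays. Leaving out 1 array gave 161 to 477 lower and 7 to 207 higher. The cause was not tested. Deviations of same-numbered arrays correlated at 0.50, -0.28 and -0.04. Knockout replicate 3 with wild-type replicate 2 gave 0.50, and knockout replicate 2 with wild-type replicate 3 gave 0.48. The remaining pairs of a knockout and a wild-type array lay between -0.39 and -0.16. Whether arrays of the groups share a factor was not tested, and the main fit holds no such term. With a replicate block 571 probes were lower and 316 higher, and 5 of the 6 genes remained lower. Cd93, at 0.11 log2, turned to -0.22 with median centring, -0.39 when arrays were not normalized to each other and -0.13 to 0.34 when 1 array was left out, none of them called. Of 301 differences of the other named pathway genes 278 kept their direction and their side of the threshold, 12 lost a call, 8 gained one and 3, all of Cd93, changed sign. Signal near background limits Cr2, the dimmer probes of Cd79b and Cd22, and Cd79a in the knockout. Among the other named genes it limits Pou2af1, Fcer2a and Cd5, each detected on 1 knockout array, and Cmah, detected on none.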
